A study of Mus musculus with 35 samples.

Results

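Lung RNA taken 24 h after a single instillation of NRCWE-043 into the trachea at 18 µg per animal was set against lung RNA of controls at 0 µg. The members were the 10 arrays whose titles name these groups, 5 treated and 5 control, of 35 in the series. All mice were female C57BL/6, 5 to 7 weeks old, and the materials were given in 40 µl. By its title the series ranks nanomaterials, known here by code names alone, for their potency to disturb lung pathways. The labels do not state the vehicle or any other treatment of the controls. Groups of 5 arrays used for comparison were NRCWE-043 at 54 µg and NRCWE-044 and NRCWE-045 at 18 µg each. RNA came from random sections of lung. Nothing in the labels ties each array to a mouse of its own. The p-values then reflect the spread among arrays alone, which may be partly technical. Except where stated, that spread and each SE come from all 35 arrays in 7 groups, those of NRCWE-044 and NRCWE-045 at 54 µg included. In such tissue, fewer cells of a type and less RNA per cell cannot be told apart.

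A particle that reaches the alveoli is met by macrophages and epithelium, which release chemokines that draw neutrophils and monocytes. The same tissue can make acute phase proteins such as the serum amyloids, and cells under oxidant or heme load induce protective enzymes such as heme oxygenase. These genes are therefore the usual readouts of lung exposure at 1 day.

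Values are log2 ratios of lung RNA (Cy5) to a universal mouse reference RNA (Cy3), and a change is the difference of group means on that scale. The share of probes well above background in Cy5 was 51.6 to 59.0% on the treated arrays and 44.1 to 59.3% on the controls. Sftpc and Scgb1a1, defining genes of alveolar type 2 and club cells, were above background on 10 of 10 arrays. A feature, a gene or a probe target without a symbol, was called at an adjusted p under 0.05 (limma, Benjamini-Hochberg over 25534 features).

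One control array stood with the treated arrays. Control replicate 7 lay nearer to the treated mean than to the mean of the other controls for 757 of the 1073 features called in the comparison, or 70.5%. For the other 4 controls that share was 1.49 to 9.23%, a share that choosing called features lowers. Over all features the shares were 55.6% for control replicate 7 and 35.3 to 41.4% for the others. A second measure used neither these controls nor the 18 µg group. On the 15 arrays at 54 µg, 1346 features differed the same way between NRCWE-043 and both other materials. Each array was then placed on a line where 0 is the mean of NRCWE-044 and NRCWE-045 at 54 µg and 1 is that of NRCWE-043 at 54 µg. The 5 arrays of NRCWE-043 at 18 µg stood at 0.863, 0.921, 0.977, 0.916 and 1.02. Control replicate 7 stood at 0.872, inside the range of the treated arrays, and the other controls at -0.222 to 0.250. The arrays of NRCWE-044 and NRCWE-045 at 18 µg stood at -0.147 to 0.269 and -0.113 to 0.102. The array is kept under its label. Counts called at 18 µg against control and some genes are also given without it. Other values against control include it unless stated otherwise.

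**Figure D1:**
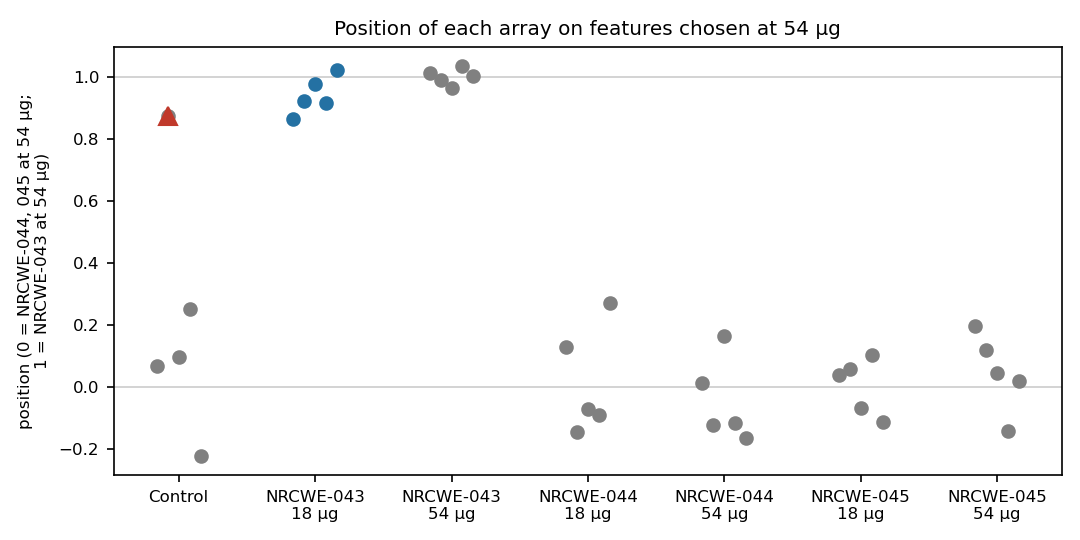
Position of each of the 35 arrays (points) by group on 1346 features chosen on the 54 µg arrays, where 0 is the mean of NRCWE-044 and NRCWE-045 at 54 µg and 1 that of NRCWE-043 at 54 µg; the arrays at 54 µg chose the features. Control replicate 7 (red triangle, 0.872) lies with the 18 µg arrays of NRCWE-043 (blue, 0.863 to 1.02), and the other controls lie at -0.222 to 0.250.

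The comparison with control asked how the lung transcriptome differed at the lower dose. Of the 25534 features, 1073 (4.20%) were called, 343 higher (1.34%) and 730 lower (2.86%), and 528 of them changed at least 1.5-fold. Genes with a symbol made up 619 of the calls, 276 higher and 343 lower. The groups did not overlap for 758 of 25512 features with all values (2.97%), 346 higher (1.36%) and 412 lower (1.61%). Without control replicate 7 there were 1857 calls (7.27%), 640 higher (2.51%) and 1217 lower (4.77%). In a fit of the 10 arrays alone, 0 features were called by limma (3701 at an unadjusted p under 0.05), and 816 when control replicate 7 was also left out, an alternative chosen after seeing the data. Median centring in place of loess left 54 calls, 13.0% of them higher, against 32.0% higher with loess.

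Hmox1, which encodes the inducible enzyme that breaks down heme, rose the most among named genes. It stood at -1.36, -0.62, -1.45, -0.91 and -0.50 on the treated arrays and at -3.33, -1.43, -4.07, -3.95 and -3.21 on the controls. Only control replicate 7, at -1.43, came within the treated range. Hmox1 rose by 2.23 (SE 0.32, adjusted p = 8.8e-05 by limma), from -3.20 ± 1.06 to -0.97 ± 0.43 (SD, n = 5 each), and a dimmer probe rose by 0.91. Without control replicate 7 the rise of Hmox1 was 2.67 (adjusted p = 4.2e-09 by limma). Among 22 tested targets of NRF2, the factor that drives antioxidant genes, 2 rose and 1 fell, with a median change of 0.13. Over all features 1.34% were called higher and 2.86% lower. The pentose phosphate enzyme Tkt rose by 0.66 (adjusted p = 0.024 by limma), and the glutathione transferase Gsta3 fell by 0.85 (adjusted p = 0.030 by limma).

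**Figure D2:**
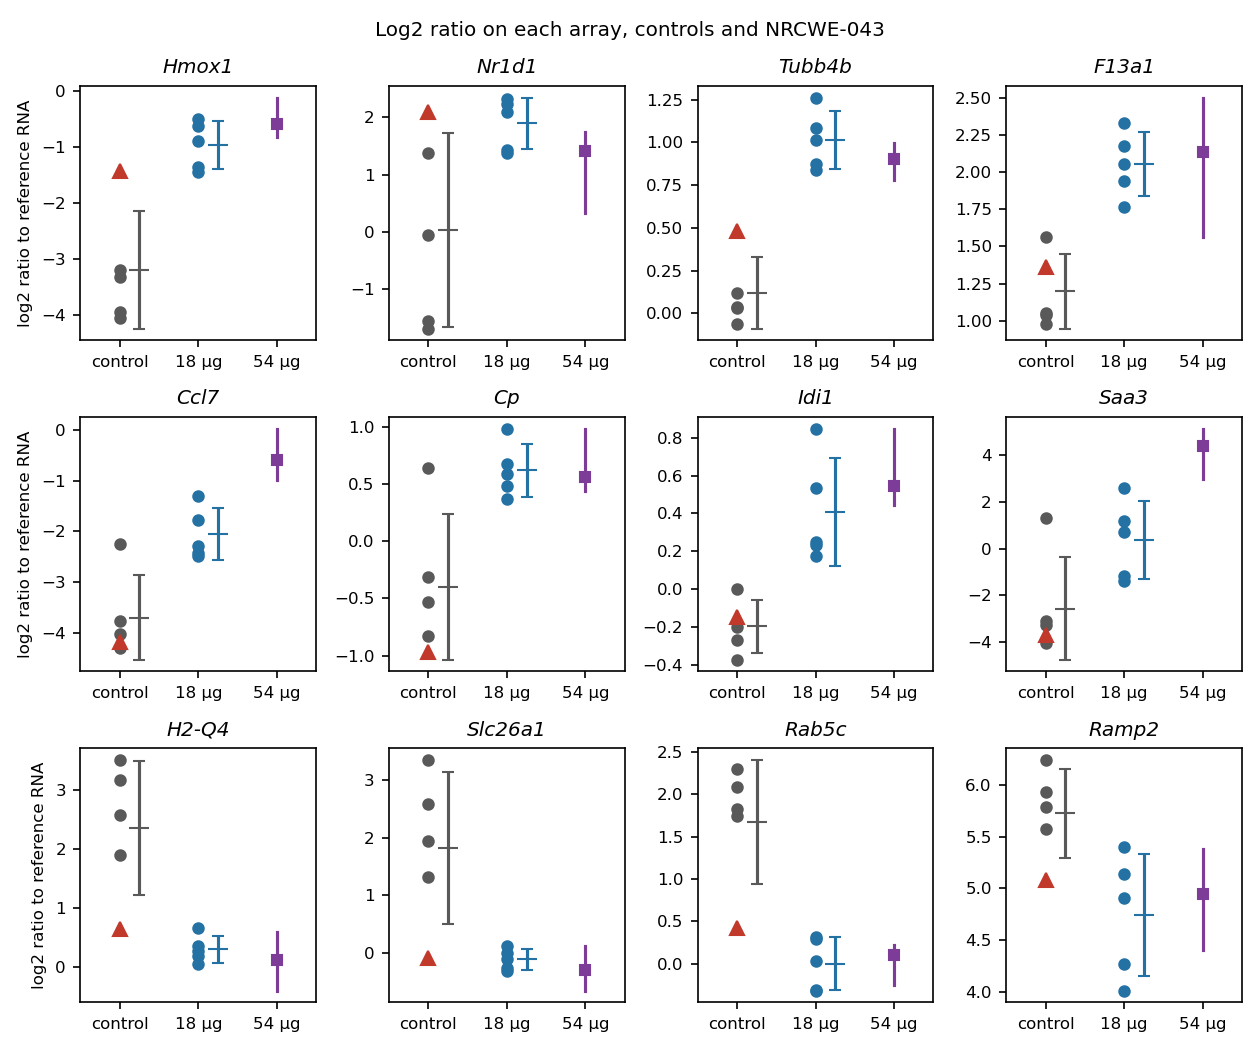
Log2 ratio to reference RNA of 12 genes on each control array (grey; red triangle, control replicate 7) and each NRCWE-043 18 µg array (blue), with mean ± SD beside the points (n = 5 each); purple shows the lowest, median and highest of the 5 arrays at 54 µg. Control replicate 7 lies near the treated arrays for Hmox1, Nr1d1, H2-Q4 and Slc26a1, and with the other controls for Ccl7, Cp, Idi1 and Saa3.

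Among the chemokines, Ccl7, an attractant of monocytes, stood at -2.49, -1.30, -2.29, -2.43 and -1.77 on the treated arrays. On the controls it stood at -3.77, -4.18, -4.29, -2.25 and -4.02. Control replicate 29 was the 1 control that overlapped the treated arrays, and control replicate 7 lay at the low end. Ccl7 rose by 1.64 (SE 0.41, adjusted p = 0.016 by limma), and by 1.53 without control replicate 7. It was the 1 member called of 12 CC chemokines, whose median change was 0.65 against 0.00 over all features. Of all features 4.20% were called. With slide as a fixed block Ccl7 had an adjusted p of 0.060 (limma). Ccl2, which acts on the same receptor, stood at 1.28 above control (adjusted p = 0.057 by limma), and 0 of 13 CXC chemokines were called. The neutrophil attractants Cxcl1 and Cxcl5 were at 0.71 and 0.91 (adjusted p = 0.34 and 0.40 by limma), the interferon-induced Cxcl10 at 0.56 and the eosinophil attractant Ccl24 at 1.24 (adjusted p = 0.55 and 0.30).

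Of 20 acute phase genes, 1 was called (over all features, 4.20%), with a median change of 0.31. Cp, the copper-carrying plasma oxidase ceruloplasmin, stood at 0.68, 0.98, 0.49, 0.59 and 0.37 on the treated arrays and at -0.53, -0.97, -0.83, 0.64 and -0.31 on the controls. Control replicate 29 again lay within the treated range. Cp rose by 1.02 (SE 0.25, adjusted p = 0.016 by limma). Saa3, a serum amyloid A made in inflamed tissue, stood at -1.39, 2.61, -1.16, 0.70 and 1.17 on treated arrays and at -3.27, -3.73, -4.06, 1.31 and -3.11 on controls. Control replicate 29 exceeded 4 of the 5 treated arrays. The change of Saa3 was 2.96 (SE 0.99, adjusted p = 0.085 by limma).

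Leaving out control replicate 29 moved several inflammatory genes past the threshold, while the count over all features went from 1073 to 914. That array was the highest control for Saa3 and Timp1, so leaving it out must raise their change. Saa3 was then at 3.93 (adjusted p = 0.014 by limma), Ccl2 at 1.56 (adjusted p = 0.021) and Timp1, an inhibitor of metalloproteinases, at 2.05 (adjusted p = 0.030). Lcn2, which binds bacterial iron carriers, was at 1.44 (adjusted p = 0.0081 by limma). The changes of Ccl2 and Lcn2 were also larger than with all controls, so these calls follow in part from the array left out. Treated replicate 10 stood above the other treated arrays for Timp1 (1.36 against -1.37 to -0.79) and Ccl2 (-2.46 against -3.66 to -3.37). Leaving out that treated array must lower both changes, and neither gene was then called. With all controls Timp1 was at 1.55 and Lcn2 at 1.07 (adjusted p = 0.12 and 0.073 by limma). Saa1 and Saa2, other serum amyloids, were at 0.74 and 0.33 with all controls, and Orm2, a plasma glycoprotein, at 0.77 (adjusted p = 0.53, 0.73 and 0.29 by limma). The cytokines Il1b and Il6 were at 0.56 and 0.20 (adjusted p = 0.29 and 0.74), and Il6 was above background on 1 control and 2 treated arrays.

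0 of 25 interferon response genes, 0 of 15 complement genes and 0 of 18 genes of the IL-1 and IL-6 axis were called by limma. Over all features 4.20% were called, so counts of 0 in lists this small are near that share. Isg15, an interferon-induced modifier, was at 0.77, and the complement genes C3 and Cfb at 0.43 and 0.28 (adjusted p = 0.22, 0.39 and 0.38 by limma). Slc26a4, an anion exchanger of airway epithelium, was at 1.93 (adjusted p = 0.14), Ch25h, which makes an oxysterol, at 0.71 (adjusted p = 0.13), and the macrophage arginase Arg1 at 0.40 (adjusted p = 0.56). The metallothionein Mt2 was at -0.04 and the xenobiotic enzyme Cyp1a1 at -0.29 (adjusted p = 0.97 and 0.55), and Cyp1a1 was above background on 3 arrays of each group.

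Cholesterol synthesis was the list with the most called members, 6 higher and 1 lower of 23 (over all features, 1.34% were higher and 2.86% lower), with a median change of 0.21. Idi1, which isomerises the isoprenoid building block, stood at 0.54, 0.85, 0.23, 0.25 and 0.17 on treated arrays. On the controls it stood at -0.20, -0.15, -0.27, 0.00 and -0.37, so the groups did not overlap and control replicate 7 lay among the other controls. Idi1 rose by 0.60 (SE 0.13, adjusted p = 0.0051 by limma). Hsd17b7, a later enzyme of the pathway, rose by 0.70 (adjusted p = 0.0086 by limma), and Stard4, a carrier of sterols, by 0.56 (adjusted p = 0.044). Their calls were lost in 4 and 14 of 29 alternatives. Pmvk, the phosphomevalonate kinase, fell by 0.84 (adjusted p = 0.042 by limma), a call lost in 18 of 29 alternatives, among them slide as a fixed block (adjusted p = 0.070). The dimmer probes of Hsd17b7, Stard4 and Pmvk were at 0.27, 0.38 and -0.93, none of them called. Control replicate 7 was the highest control for Hsd17b7 (-0.90) and Stard4 (0.22) and the lowest for Pmvk (0.42). Without control replicate 7 the counts were again 6 higher and 1 lower.

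Sequence upstream of these genes is shown because the list held calls in both directions, for the named members with an entry in the RefSeq promoter table used (GRCm38.p6), as the 250 bases before the start (for Pmvk, the first entry listed). SREBP factors, which drive this pathway, bind sterol regulatory elements, and NF-Y binds the CCAAT box beside them. Capitals mark matches on either strand to TCACNCCAC, a sterol regulatory element, or to ATTGG, the inverted CCAAT box, motifs that do not overlap each other here.
Idi1, chr13:8885356-8885605, plus strand: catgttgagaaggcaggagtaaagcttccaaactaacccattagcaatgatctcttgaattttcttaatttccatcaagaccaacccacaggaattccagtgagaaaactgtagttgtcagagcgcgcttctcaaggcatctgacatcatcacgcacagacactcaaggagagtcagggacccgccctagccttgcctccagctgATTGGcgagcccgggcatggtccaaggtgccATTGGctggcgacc
Hsd17b7, chr1:169969206-169969455, minus strand: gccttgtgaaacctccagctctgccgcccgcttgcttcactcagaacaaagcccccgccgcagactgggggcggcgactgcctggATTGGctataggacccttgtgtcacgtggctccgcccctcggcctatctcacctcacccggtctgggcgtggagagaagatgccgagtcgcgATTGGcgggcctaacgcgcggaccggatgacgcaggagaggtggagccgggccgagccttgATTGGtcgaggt
Pmvk, chr3:89454291-89454540, plus strand: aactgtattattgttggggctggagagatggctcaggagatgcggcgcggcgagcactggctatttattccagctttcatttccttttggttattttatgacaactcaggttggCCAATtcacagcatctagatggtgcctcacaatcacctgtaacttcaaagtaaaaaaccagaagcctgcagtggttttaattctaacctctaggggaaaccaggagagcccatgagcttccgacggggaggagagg
The CCAAT letters occurred 2 times for Idi1, 3 times for Hsd17b7 and 1 time for Pmvk (0 times in its other entry), in a window where 33.9% of 32851 promoters hold them. TCACNCCAC was found in 0 of these windows and in 1.05% of all promoters. The matches are a description of these windows, and binding was not measured.

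Nr1d1, which encodes the circadian repressor REV-ERB alpha, stood at 1.43, 1.38, 2.23, 2.09 and 2.32 on the treated arrays. The controls were spread from -1.69 to 2.09, with values of -1.55, 2.09, -0.06, 1.38 and -1.69. Control replicates 7 and 29 lay with the treated arrays. Nr1d1 rose by 1.86 (SE 0.43, adjusted p = 0.010 by limma) but was not called without control replicate 2 (1.46, adjusted p = 0.056) or 30 (1.43, adjusted p = 0.069). Of 17 clock genes, 2 rose and 1 fell (over all features, 1.34% and 2.86%). Bhlhe40, a clock repressor, rose by 0.76 (adjusted p = 0.030), and Nfil3, a repressor of D-box genes, fell by 0.79 (adjusted p = 0.042). Dbp, the activator at D-boxes, was at 1.89 (adjusted p = 0.082 by limma), with controls from -2.67 to 2.71. It was called without control replicate 7 (2.46, adjusted p = 0.0091 by limma) and without control replicate 29 (adjusted p = 0.014). The labels do not give the hour at which tissue was taken, and its part in these values was not tested.

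Further genes rose outside these groups. Epha1, an ephrin receptor, rose by 1.52 (adjusted p = 0.00028 by limma), Tnfrsf12a, the receptor of TWEAK, by 1.23 (adjusted p = 0.0027) and Tifa, an adaptor in NF-kB signalling, by 1.103 (adjusted p = 0.00025). Ier3, an immediate early gene, rose by 1.09 (adjusted p = 0.0040), Bax, a promoter of apoptosis, by 0.97 (adjusted p = 0.020) and Thbs1, a matrix glycoprotein, by 0.86 (adjusted p = 0.028). Other genes among the 15 largest rises were Lamtor2 at 1.30, Sertad3 at 1.12, Clic1 and Cyp39a1 at 1.09, Eml2 at 1.08 and Matn4 at 1.03. Control replicate 7 was the highest control, on the treated side, for Epha1, Tnfrsf12a, Tifa, Ier3, Lamtor2, Sertad3, Clic1, Cyp39a1, Eml2, Matn4 and Ncl. For Sertad3 it stood at 0.098, above all treated arrays, and the other 4 controls at -2.09 to -0.91. Ncl, the nucleolar protein nucleolin, rose by 1.48, while its dimmer probe was at 0.19 and was not called.

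Tubb4b, a beta tubulin listed with ciliated cell markers, stood at 1.26, 1.01, 0.87, 0.84 and 1.08 on treated arrays. The controls stood at -0.06, 0.48, 0.03, 0.03 and 0.12, and the groups did not overlap. Tubb4b rose by 0.89 (SE 0.11, adjusted p = 1.0e-05 by limma). It was the 1 called gene of 14 ciliated cell markers, whose median change was 0.06. Of all features 4.20% were called, so 1 call in a list of this size is near that share. F13a1, the factor XIII subunit made by macrophages, stood at 2.06, 1.76, 1.94, 2.17 and 2.33 against 0.98, 1.36, 1.04, 1.05 and 1.56, again without overlap. F13a1 rose by 0.86 (SE 0.18, adjusted p = 0.0042 by limma). The difference of F13a1 within slide was 0.89 on slide 1 and 0.90 on slide 3, the 2 slides that held both groups. Each slide held 1 treated array, and slide 1 held control replicate 7. Such differences were also close for Cp (1.43 and 1.32). They were less alike for Hmox1 (1.02 and 2.62), Rab5c (-0.83 and -2.06) and Sertad3 (-0.0069 and 1.45). Aqp5, the water channel of alveolar type 1 cells, rose by 0.72 (adjusted p = 0.0020 by limma), but its dimmer probe was at -0.03.

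The falls were larger in number and were led by features without a symbol. ENSMUST00000099683 stood at -2.25, -2.30, -3.63, -2.66 and -4.18 on the treated arrays and at 4.05, -2.21, 3.29, 3.76 and 3.90 on the controls. Control replicate 7, at -2.21, stood with the treated arrays. The fitted change was -5.56 (SE 0.66, adjusted p = 7.0e-06 by limma), and -6.76 without that array. A probe for chr5:15146475-15170100 in the array design (build mm9) fell by 5.20, with control replicate 7 at -3.09 and the other controls at 1.69 to 2.83. Such interval probes were called lower for 134 of 3369 (3.98%) and higher for 19 (0.564%), against 343 (2.20%) and 276 (1.77%) of 15621 genes with a symbol. The other kinds of feature without a symbol had like shares. Of 1729 Ensembl transcripts 64 were lower (3.70%) and 11 higher (0.636%). Of 4815 other accessions 189 were lower (3.93%) and 37 higher (0.768%).

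Among named genes H2-Q4, a class I gene of the major histocompatibility complex, fell the most. It stood at 0.34, 0.26, 0.04, 0.66 and 0.18 on treated arrays and at 3.17, 0.64, 2.58, 1.90 and 3.52 on controls. The treated arrays lay within a narrow range that control replicate 7 shared. H2-Q4 fell by 2.06 (SE 0.32, adjusted p = 0.00025 by limma), and its change was -2.49 without control replicate 7. Tapbp, which loads peptides onto class I molecules, rose by 0.31 (adjusted p = 0.047 by limma). H2-Q4 and Tapbp were the 2 calls among 17 class I genes (over all features, 4.20% were called).

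Slc26a1, a sulfate transporter, stood at -0.12, 0.12, -0.27, -0.31 and 0.00 against 2.59, -0.10, 1.95, 1.31 and 3.36. Control replicate 7 was the 1 control within the treated range. Slc26a1 fell by 1.94 (SE 0.36, adjusted p = 0.0014 by limma), and its change was -2.42 without control replicate 7. Rab5c, a GTPase of early endosomes, stood at 0.29, 0.31, -0.32, -0.32 and 0.04 against 1.82, 0.43, 1.74, 2.09 and 2.30. The groups did not overlap for Rab5c, although control replicate 7 was the lowest control. It fell by 1.67 (SE 0.22, adjusted p = 3.7e-05 by limma). Pign, an enzyme of GPI anchor synthesis, fell by 1.72, Sfi1, a centrosomal protein, by 1.71 and Fam107a by 1.54, and Sox5, a transcription factor, was at -1.4997 and also called. Fbxl12os and the clone-named genes BC051226, 2810459M11Rik, E330020D12Rik and 9230102O04Rik fell by 1.76, 1.65, 1.58, 1.53 and 1.52, and BC061237 fell by 1.48. Control replicate 7 was also the lowest control for Pign, Sfi1, Fam107a, Sox5, Fbxl12os, BC051226, 2810459M11Rik, E330020D12Rik and 9230102O04Rik. For Pign it stood at 0.15 and the other controls at 1.44 to 2.65.

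Probes of a gene could differ in the size and in the sign of a change. Slc17a5, a sialic acid exporter, fell by 1.59 while its dimmer probe was at 0.13, and Slc8a3, a sodium and calcium exchanger, fell by 1.55 against 0.10. Ulk3, a kinase, fell by 1.495 against -0.19. Control replicate 7 was the lowest control for Slc17a5, Slc8a3 and Ulk3 too. Itgam, the CD11b integrin of myeloid cells, fell by 1.27 (adjusted p = 0.00063 by limma), while its 2 other probes were at -0.03 and 0.18. Of 119 genes called lower with a second tested probe, 83 (69.7%) had that probe below 0 and 27 (22.7%) had it at no less than 50% of the change of the brighter one. Of 83 genes called higher, the counts were 61 (73.5%) and 26 (31.3%). For the genes called lower the median change was -0.63 on the brighter probe and -0.09 on the second. For those called higher the medians were 0.46 and 0.15.

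Markers of the cell types that lung tissue can hold were counted by list. Over all features 4.20% were called, 1.34% higher and 2.86% lower. Counts of 0 or 1 in lists of this size are near that share. Of 19 neutrophil markers 0 rose and 1 fell, namely Csf3r, the receptor of granulocyte colony-stimulating factor, by 0.57 (adjusted p = 0.013 by limma). The mean log2 ratio of the neutrophil list was 0.86 to 1.17 on treated arrays and 0.55 to 1.61 on controls. Of 17 monocyte and interstitial macrophage markers, Itgam was the 1 call, and the list's mean was 0.37 to 1.01 against 0.78 to 1.09. Ramp2, a receptor component of endothelium, fell by 0.98 (adjusted p = 0.011), the 1 call of 18 endothelial markers. 0 of 19 T and NK cell, 0 of 12 B cell, 0 of 16 alveolar macrophage, 0 of 13 type 2, 0 of 11 club cell and 0 of 14 cardiac markers were called by limma. Sftpc was at -0.28 and Scgb1a1 at -0.49 (adjusted p = 0.53 and 0.16 by limma). All 8 red cell markers were below control and 0 were called by limma, with changes of -0.73 to -0.36 and a median of -0.54 (-0.64 without control replicate 7). The median change of the cardiac markers was -0.32, and -0.59 without control replicate 7. The mean of the cardiac list differed between arrays of both groups, 0.07 to 2.56 on controls and 0.20 to 1.97 on treated arrays, and the part of heart tissue and of blood in other results was not tested.

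The step from 18 to 54 µg asked what the higher dose added, in a comparison without controls. At 54 µg 236 features were higher (0.924%) and 62 lower (0.243%), 298 in all (1.17%). Against control, NRCWE-043 at 54 µg had 2622 calls (10.3%), 1366 higher (5.35%) and 1256 lower (4.92%). Saa3 stood 3.84 higher at 54 µg (adjusted p = 0.048 by limma), Saa1 3.22 (adjusted p = 0.0085), Orm2 2.35 (adjusted p = 0.0053) and Saa2 2.11 (adjusted p = 0.015). Of 20 acute phase genes 7 were higher and 0 lower. Cxcl10 was 2.63 higher, Ccl7 1.57, Il1b 1.18, Arg1 2.04, C3 1.13 and Cfb 0.92. On the arrays at 54 µg Saa1 stood at 2.67 to 4.52, above all 5 arrays at 18 µg, which ran from -0.94 to 1.84. Counts of higher genes were 7 of 25 for the interferon response, 5 of 15 for complement, 5 of 19 for neutrophil markers and 5 of 17 for monocyte and interstitial macrophage markers. Aldh1a1, a retinal dehydrogenase of airway epithelium, was 1.07 lower (adjusted p = 0.014).

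The fitted difference between the doses was also taken for genes called at 18 µg. Hmox1 differed by 0.48 (adjusted p = 0.51 by limma), H2-Q4 by -0.24 (adjusted p = 0.80), Rab5c by 0.03 (adjusted p = 0.97) and Tubb4b by -0.13 (adjusted p = 0.65), against the called difference of 1.57 for Ccl7. A p above the threshold does not show that the doses act alike. The count at the step fell to 7 without treated replicate 5 and rose to 551 without treated replicate 33.

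**Figure D3:**
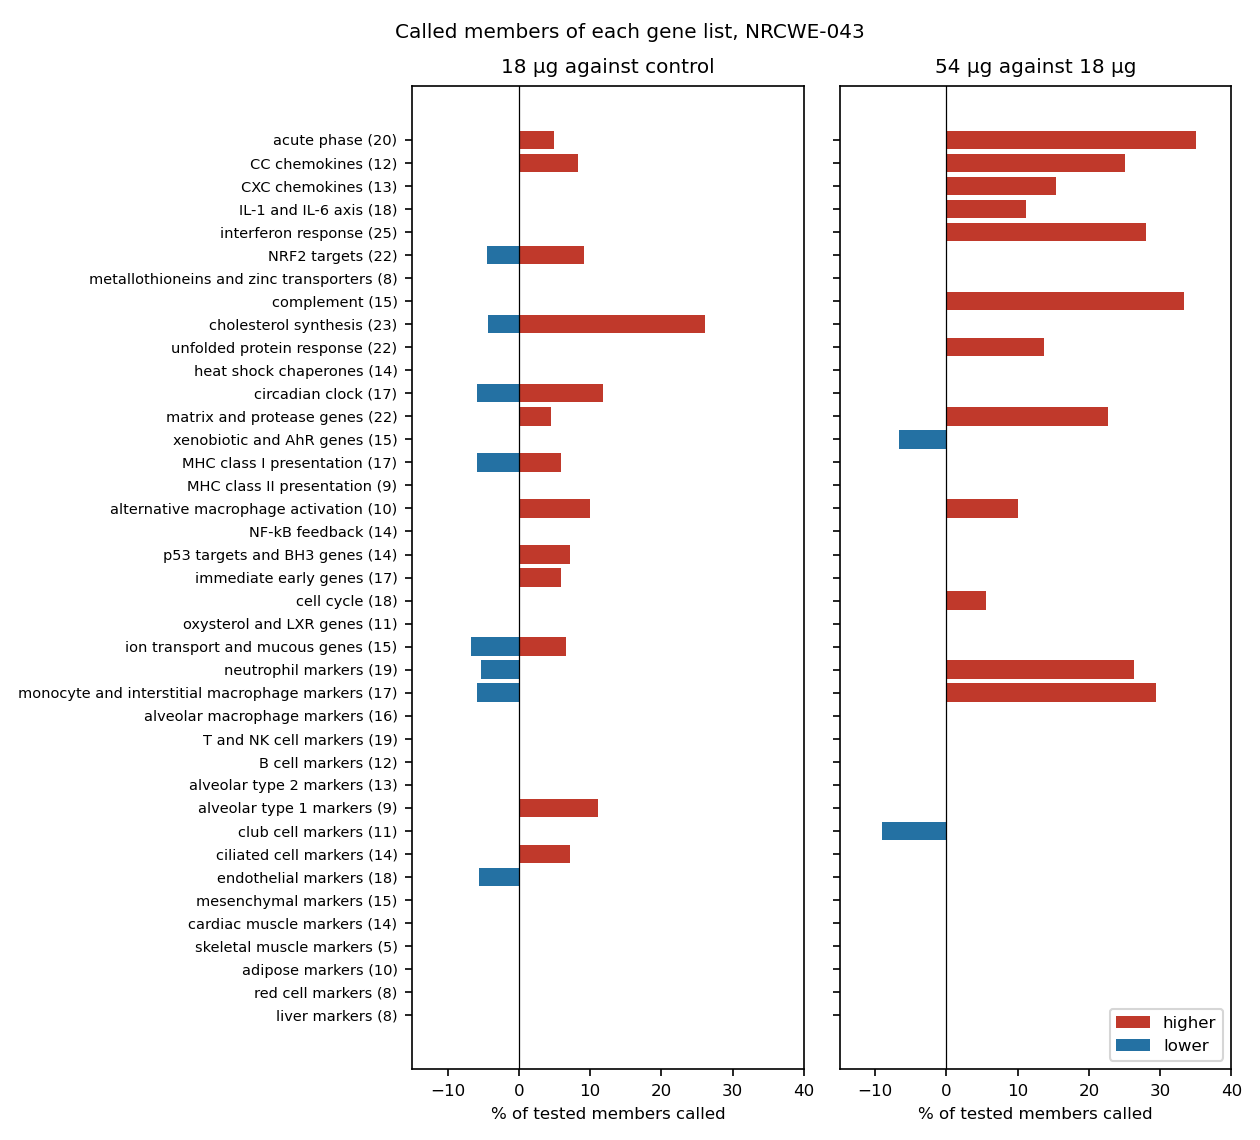
Share of tested members of each gene list called higher (red) or lower (blue) by limma, for 18 µg against control (left) and 54 µg against 18 µg (right); the number of tested members stands in brackets. Cholesterol synthesis has 6 of 23 members higher at 18 µg, and acute phase has 7 of 20 higher at the step to 54 µg. Over all features 1.34% and 0.924% were higher.

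At the matched dose of 18 µg, NRCWE-043 differed from NRCWE-044 at 2776 features (10.9%), 1394 higher (5.46%) and 1382 lower (5.41%). It differed from NRCWE-045 at 2184 (8.55%), 647 higher (2.53%) and 1537 lower (6.02%). Neither other material had a called feature against the controls, 0 and 0 by limma, with 2769 and 712 at an unadjusted p under 0.05. These counts include control replicate 7, and none was made without it. A count of 0 does not show that these materials left the lung unchanged. All 3 comparisons use the same 18 µg arrays of NRCWE-043, so their values are given side by side. Hmox1 was 2.33 higher than with NRCWE-044 (adjusted p = 6.7e-06 by limma) and 2.69 higher than with NRCWE-045 (adjusted p = 1.0e-06). H2-Q4 was lower in both, at -3.01 and -2.67. Rab5c was at -1.66 and -1.90, and Tubb4b at 0.49 and 0.79, all called. Ccl7 was 1.51 higher than with NRCWE-044 (adjusted p = 0.014) and at 0.82 against NRCWE-045 (adjusted p = 0.23). Saa3 was at 1.63 and 1.37 (adjusted p = 0.32 and 0.44), and Cp was 0.79 higher than with NRCWE-045 but at 0.48 against NRCWE-044 (adjusted p = 0.25).

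Further lists held genes called against NRCWE-044, where 5.46% of all features were higher and 5.41% lower. Of 14 heat shock chaperones, 10 were lower than with NRCWE-044, among them Hspb1 at -1.01 and Hspa8 at -0.70, and 0 were called against NRCWE-045. Skeletal muscle markers stood at a median of -1.36 against NRCWE-044, with 0 of 5 above 0 and 0 called by limma. Their mean log2 ratio reached 5.00 on 1 array of NRCWE-044 at 18 µg, against -1.33 to -0.90 on controls. Replicate 23 of NRCWE-044 had a median Cy5 signal of 345.5, against 100 to 122 on the other 4 arrays of its group. The part of muscle tissue and of that array in these differences was not tested. Of 17 clock genes, 7 were higher and 3 lower, led by Dbp at 4.53, Nr1d1 at 3.72 and Nr1d2 at 2.399, with the activator Arntl at -2.43. Of 19 T and NK cell markers, 8 were higher. Against NRCWE-045, 4 of 22 genes of the unfolded protein response were higher (over all features, 2.53%). Among them was the chaperone Hspa5 at 0.93 (adjusted p = 0.0061 by limma).

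**Figure D4:**
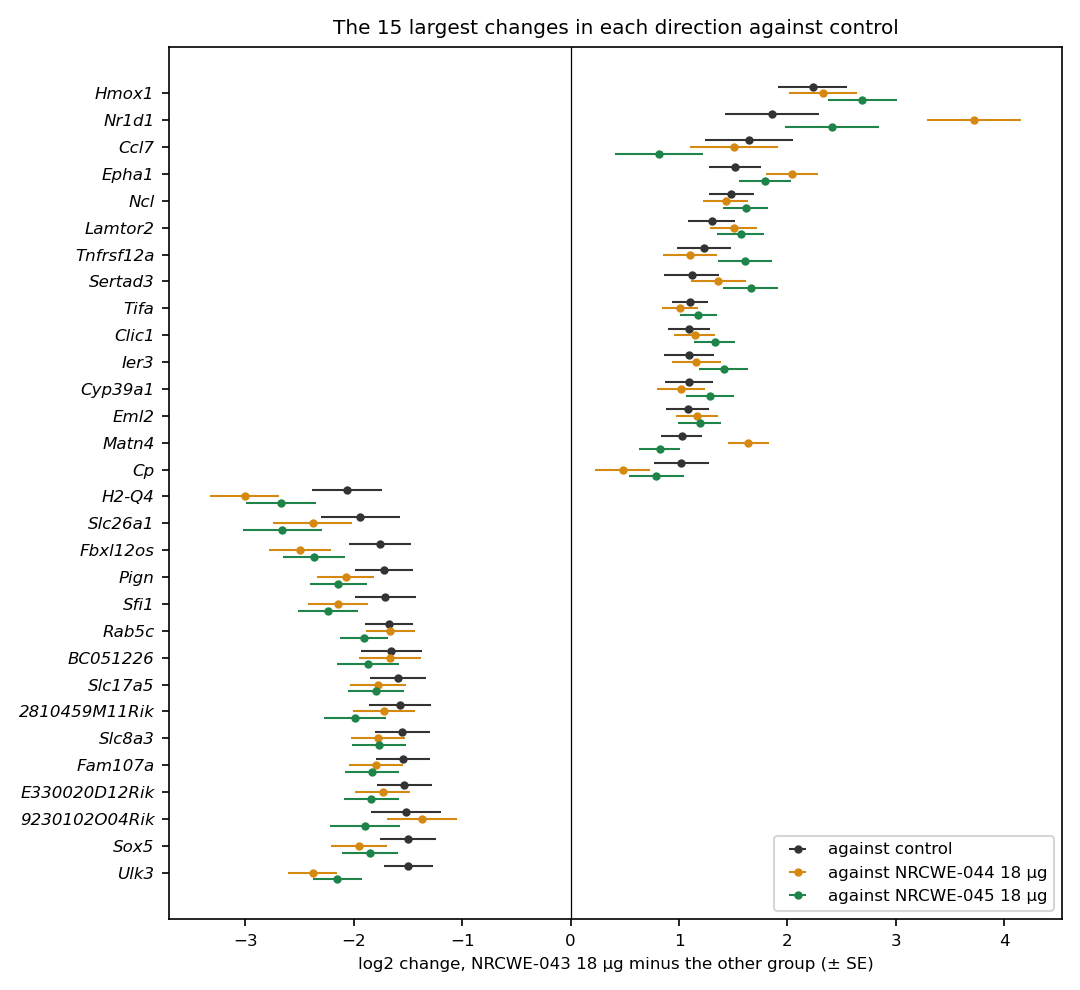
Log2 change with its SE of the 15 largest rises and 15 largest falls against control (black), with the same genes of NRCWE-043 at 18 µg set against NRCWE-044 (orange) and NRCWE-045 (green) at 18 µg; the genes were chosen by the black values. Hmox1 stands at 2.23, 2.33 and 2.69, and H2-Q4 at -2.06, -3.01 and -2.67.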

How the data were processed

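Spot intensities of 2-colour Agilent arrays came from Feature Extraction 11.0.1.1, per the file headers. The log2 ratios deposited by the authors, whose normalization no source used here states, served as an alternative (correlation 0.994 to 1.00 with loess ratios). Per the labels' protocols, 200 ng of RNA went onto each array. Median intensities were corrected with normexp (offset 50) and loess in limma 3.58.1 (R 4.3.3, data.table in version 1.17.8). Spots marked as outliers were left out. Tested probes were well above the Cy5 background on 3 or more of the 5 arrays in some group, and the brightest probe stood for a gene, which left 34326 probes and 25534 features. RefSeq accessions of GRCm38.p6 gave 15621 of them a symbol. All 35 arrays in 7 groups were fitted together (lmFit, eBayes) with Benjamini-Hochberg adjustment within each comparison.

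The members and the 39 gene lists were chosen with earlier results of these data known. Named genes were the 15 largest changes in each direction with all 5 treated arrays beyond the mean of the controls, 4 members at most from every list, a fixed set, and the 5 largest in each direction of the other comparisons; the text covers a part of them. Controls lay on 4 of the 7 slides and the treated arrays on 5, with slides 1 and 3 holding both. The procedure was run on simulated data, with independent noise drawn for each gene and array. No simulated control lay with the treated arrays, so the run cannot speak to that feature of these data. Alternatives changed the values, normalization, filter, probe summary, blocks, arrays, variance model and threshold, and left out arrays. The number of arrays limits the precision.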

Additional observations from a re-analysis of the deposited data

Results flagged for a closer look

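Single arrays stood far from the other 4 of their group, by Dixon's test, in 15 of 156 sets of 5 values of the 78 genes followed in the text. Chance gives such a result in about 1 set in 20. Control replicate 7 lay above the other controls for Epha1 at 2.11, Lamtor2 at 0.12, Ier3 at 0.25, Tifa at -0.056 and Ncl at -1.71. Control replicate 29 lay above the others for Saa3 at 1.31, Orm2 at 1.91, Timp1 at -0.22 and Ccl7 at -2.25. Control replicate 30 did so for Cyp1a1 at 2.31. Treated replicate 10 was the highest for Timp1 at 1.36, Cxcl5 at -0.15 and Ccl2 at -2.46. Treated replicate 5 was the lowest for Ier3 at -0.23 and Saa2 at -0.28.

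The log2 ratios with NRCWE-043 differed between the doses, as 54 minus 18 µg, for 11 of the 78 genes followed in the text by limma. Log2 differences were Ccl7 1.57, Saa3 3.84, Saa1 3.22, Saa2 2.11, Orm2 2.35, Cxcl10 2.63, Il1b 1.18, C3 1.13, Cfb 0.92, Arg1 2.04 and Aldh1a1 -1.07. Over all features 1.17% were called, and the followed genes were picked partly for large changes in this step.

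At 18 µg the log2 ratios with NRCWE-043 differed from those with NRCWE-044, as NRCWE-043 minus NRCWE-044, for 51 of those 78 genes by limma. The part of the sampling hour, of muscle tissue and of replicate 23 of NRCWE-044 in these differences was not tested. Over all features 10.9% were called. The 78 genes were picked partly for large changes on the same treated arrays, so the count follows in part from that choice. Log2 differences above 0 were Hmox1 2.33, Ccl7 1.51, Nr1d1 3.72, Epha1 2.04, Ncl 1.43, Lamtor2 1.51, Tnfrsf12a 1.103, Sertad3 1.36 and Tifa 1.01. Further such differences were Clic1 1.14, Ier3 1.16, Cyp39a1 1.01, Eml2 1.16, Matn4 1.64, Tkt 0.57, Stard4 0.66, Bhlhe40 0.89 and Thbs1 0.88. The remaining genes above 0 were Tapbp 0.47, F13a1 0.70, Bax 1.29, Aqp5 0.92, Tubb4b 0.49, Dbp 4.53, Nr1d2 2.399 and Ch25h 1.06. Log2 differences below 0 were H2-Q4 -3.01, Slc26a1 -2.38, Fbxl12os -2.49, Pign -2.07, Sfi1 -2.15, Rab5c -1.66, BC051226 -1.66, Slc17a5 -1.77 and 2810459M11Rik -1.72. More of them were Slc8a3 -1.77, Fam107a -1.79, E330020D12Rik -1.73, 9230102O04Rik -1.37, Sox5 -1.95, Ulk3 -2.38, Gsta3 -0.84, Pmvk -1.18 and Nfil3 -1.82. The remaining genes below 0 were Csf3r -1.01, Itgam -1.69, Ramp2 -0.97, Arntl -2.43, Hspb1 -1.01, Hspa8 -0.70 and BC061237 -2.46.

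The log2 ratios at 18 µg likewise differed from those with NRCWE-045 for 45 of those 78 genes by limma. Over all features 8.55% were called, and the choice of genes affects this count in the same way. Genes higher with NRCWE-043 stood at Hmox1 2.69, Nr1d1 2.41, Epha1 1.79, Ncl 1.61, Lamtor2 1.57, Tnfrsf12a 1.61, Sertad3 1.66, Tifa 1.18 and Clic1 1.33. Others that were higher stood at Ier3 1.41, Cyp39a1 1.28, Eml2 1.19, Matn4 0.82, Cp 0.79, Tkt 0.61, Hsd17b7 0.58, Stard4 0.63 and Bhlhe40 0.65. The last of these stood at F13a1 1.13, Bax 1.57, Aqp5 0.57, Tubb4b 0.79 and Hspa5 0.93. Genes lower with NRCWE-043 stood at H2-Q4 -2.67, Slc26a1 -2.66, Fbxl12os -2.37, Pign -2.14, Sfi1 -2.24, Rab5c -1.90, BC051226 -1.87, Slc17a5 -1.79 and 2810459M11Rik -1.99. Others that were lower stood at Slc8a3 -1.77, Fam107a -1.83, E330020D12Rik -1.84, 9230102O04Rik -1.89, Sox5 -1.85, Ulk3 -2.15, Gsta3 -0.85, Pmvk -0.90 and Nfil3 -0.80. The last stood at Csf3r -0.70, Itgam -1.54, Ramp2 -1.004 and BC061237 -2.19.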

How the results depend on the processing

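Of 48 genes followed in the text and called against control, 0 kept the call under each of 29 alternatives, since a fit of the 10 arrays alone ended every call; Hmox1 and Rab5c kept it under the other 28. The count of 1073 was 703 with the Cy5 channel alone, 54 with median centring, 1640 with slide as a fixed block, 1831 as a random block, 1750 with scan day as a block, 0 with the 10 arrays alone, 17 at a 1.5-fold threshold and 1937 without control replicates 7 and 29; leaving out single arrays gave 387 (control replicate 30) to 1857 (control replicate 7), with 594, 655 and 574 without control replicates 2 and 15 and treated replicate 10. The dose step of 298 was 33 with Agilent's processed signals, 770 with Cy5 alone, 6 with median centring, 675, 701 and 775 with the blocks in the same order, 28 with its arrays alone, 537 with array weights, 0 at 1.5-fold, and 7 to 551 with 1 array left out. The count against NRCWE-044 was 520 with median centring, 1224 with its arrays alone, 148 at 1.5-fold and 2040 to 2897 with 1 array left out. That against NRCWE-045 was 373 with median centring, 3510, 3316 and 3607 with the blocks, 158 at 1.5-fold and 1465 to 2474 with 1 array left out. The cause of these shifts was not tested.

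Among genes not called, some changed sign. Mt2 was at 0.24 with Agilent's processed signals, 0.023 with the deposited ratios, 0.031 with Cy5 alone, 0.0083 with median centring, 0.032 with scale normalization, 0.013 with array weights, and -0.22 to 0.10 with 1 array left out, above 0 without control replicate 2, 29 or 30 or treated replicate 5. Scgb1a1 was at 0.0055 with Cy5 alone, Saa2 at -0.026 with slide as a fixed block and Cyp1a1 at -0.42 to 0.090 with 1 array left out, above 0 without control replicate 30. With any 1 array left out, 32 of the 48 called genes kept the call; Ccl7, Cp, Nr1d1, Sertad3, Gsta3, Tkt, Pmvk, Hsd17b7, Stard4, Nfil3, Bhlhe40, Thbs1, Tapbp, Bax, Csf3r and Ramp2 did not, most often without control replicate 30 (15 genes). Leaving out control replicate 29 brought calls for Saa3, Ccl2, Timp1, Lcn2, Dbp, Arntl, Ch25h and Hspa8. No paired analysis was possible because the replicate numbers run from 1 to 35 and no groups share one; slide was used as the block instead.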
